A study of Mus musculus with 16 samples.

Results

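Myc, its paralogue Mycn, the D-type cyclins Ccnd1, Ccnd2 and Ccnd3, their kinase partners Cdk4 and Cdk6, and the Cip/Kip inhibitors Cdkn1a, Cdkn1b and Cdkn1c were followed through single cells of mouse intestinal crypt preparations. The members are the rows of these 10 gene symbols in both count matrices, out of 24421 genes listed, and were chosen by name and not by level. Cells were taken at postnatal day 16 from outbred wild-type (WT) mice and from ROBO-Crainbow (ROBO) mice. In ROBO mice, Villin-Cre, which is active in the intestinal epithelium, opens a transgene (genotype ROBO(+/−):VilCre(+/−)). The opened transgene gives a cell human RSPO3 or either of 2 PTPRK:RSPO3 fusions, each paired with a fluorescent protein. Where Cre has not acted, the transgene gives an inert fluorescent protein alone. Neither group was treated. The design compares the stem cell lineage of normal and precancerous intestine. The labels list 8 samples per genotype, but cell names carry only the genotype, so each genotype counts as 1 pooled sample here, without replicates and without a test. All intervals are 95% and cover counting error only, not differences between mice.

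D-type cyclins bind Cdk4 and Cdk6 and open the way from G1 into S phase by phosphorylating the retinoblastoma proteins. Cip/Kip proteins bind cyclin-kinase complexes and can hold a cell in G1, and Myc is a transcription factor that promotes growth and is a target of Wnt signalling in intestinal crypts. Crypt stem cells divide, their transiently amplifying (TA) daughters divide faster, and cells that leave the crypt stop dividing as enterocytes or secretory cells. RSPO3 is a secreted protein that strengthens Wnt signalling.

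The matrices held 1348 WT cells with 2682127 transcript counts (unique molecular identifiers, UMIs; median 1492 per cell) and 1249 ROBO cells with 2428435 (median 1610). Cells were clustered with the 10 members left out of the clustering genes, and clusters were named from marker genes. This gave 681 stem cell-like cells, 357 TA-like cells (markers Birc5, Cdc20, Aurka) and 808 enterocyte-like cells in bottom, middle and top zones. It also gave 125 secretory-like, 30 enteroendocrine-like and 45 immune-like cells. The TA-like cluster was led by Sfrp5, a stem marker, and also held the bottom enterocyte marker Dmbt1 among its leading genes. No cluster met the naming rule for fibroblasts or tuft cells. Clusters 0 and 6 stayed unnamed, and held 23.4% of WT and 18.9% of ROBO cells. Among the stem cell-like cells, 319 formed a cluster with 14 stem markers raised, with Lgr5, Slc12a2 and Cd44 among its leading genes. The other 362 formed a shallow cluster (median 777 UMIs) with 5 stem markers raised. That cluster was led by Rn45s, a ribosomal RNA precursor, with the stem markers Rnf43 and Igfbp4 among its leading genes. Levels are given as UMIs per 10000 UMIs of the group. They are tag counts, not corrected for capture or length, so levels are compared for 1 gene between groups and not between genes.

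The members lie on 7 chromosomes of GRCm38. Myc spans chr15:61985391-61990374, Mycn chr12:12936093-12941914, Ccnd1 chr7:144929931-144939925, Ccnd2 chr6:127125162-127152193 and Ccnd3 chr17:47505051-47599691. Cdk4 spans chr10:127063534-127067920, Cdk6 chr5:3341485-3531008, Cdkn1a chr17:29090976-29100727, Cdkn1b chr6:134920401-134925513 and Cdkn1c chr7:143458339-143461050. In GENCODE M21, 7 of the 10 overlap a gene on the opposite strand, such as Bysl for Ccnd3 and Tspan31 for Cdk4, and Ccnd3 has a processed pseudogene. Whether the counting used strand is not given in the sources used here, so reads of these pairs may not be separable.

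The stretches upstream of Cdk4 and Cdkn1a are shown because these genes went opposite ways between stem cell-like and enterocyte-like cells, and because each held several copies of a short motif. Both are the part of a RefSeq promoter window upstream of the start, on GRCm38.p6, plus strand, 5′ to 3′. For Cdk4 (chr10:127063285-127063533, 249 bases) capitals mark CACGTG, the E-box bound by Myc and Max. For Cdkn1a (chr17:29090729-29090975, 247 bases) capitals mark ACATGTC on either strand, letters found in p53 binding sites.
Cdk4: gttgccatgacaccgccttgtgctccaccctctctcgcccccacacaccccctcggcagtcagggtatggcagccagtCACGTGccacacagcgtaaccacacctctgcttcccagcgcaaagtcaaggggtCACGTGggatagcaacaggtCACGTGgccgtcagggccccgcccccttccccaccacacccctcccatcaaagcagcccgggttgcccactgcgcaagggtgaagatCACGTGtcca
Cdkn1a: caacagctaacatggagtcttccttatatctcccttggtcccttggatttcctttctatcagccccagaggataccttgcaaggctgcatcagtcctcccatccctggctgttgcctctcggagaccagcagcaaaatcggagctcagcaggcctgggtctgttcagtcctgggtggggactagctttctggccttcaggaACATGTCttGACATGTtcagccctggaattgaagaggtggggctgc
The Cdk4 stretch held 4 copies of CACGTG. Of 32851 promoter windows, 7.15% held at least 1 copy, on either strand, and 0.0244% held 4 or more. The Cdkn1a stretch held 2 copies of ACATGTC, and 0.283% of windows held 2 or more against 2.01% with at least 1. A second Cdkn1a window, at chr17:29093519-29093818, held 0 copies, and the window with the motif was chosen for printing. Among the other members, Cdk6 had 1 CACGTG, Mycn had 1 TTTCGCGC (an E2F-type motif, in 0.323% of windows) and Cdk4 itself also had 1 ATCAAAG (a TCF/LEF-type motif, in 3.73% of windows). Windows were available for 6 members and not for Myc, Ccnd1, Ccnd2 or Cdkn1c. These matches describe letters and not binding.

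Along the path from crypt to villus, Myc was highest in stem cell-like cells. Ccnd1, Ccnd2 and Cdk4 were high in stem cell-like and TA-like cells and low in middle and top enterocyte-like cells. Cdkn1a and Cdkn1c were higher over all enterocyte-like cells than in either crypt class. Each of these orders was present in WT and in ROBO. In the bottom zone alone Cdkn1c, on 6 UMIs, was below its TA-like level, and the Cdkn1a interval overlapped that of stem cell-like cells. Between enterocyte-like and stem cell-like cells, 6 of the 9 members with at least 50 UMIs differed by 2-fold or more, 4 lower and 2 higher, where 31.8% of all 7164 genes differed by as much, 18.9% lower and 12.8% higher. Because these classes are clusters of the same cells, the differences are descriptions and carry no test.

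**Figure D1:**
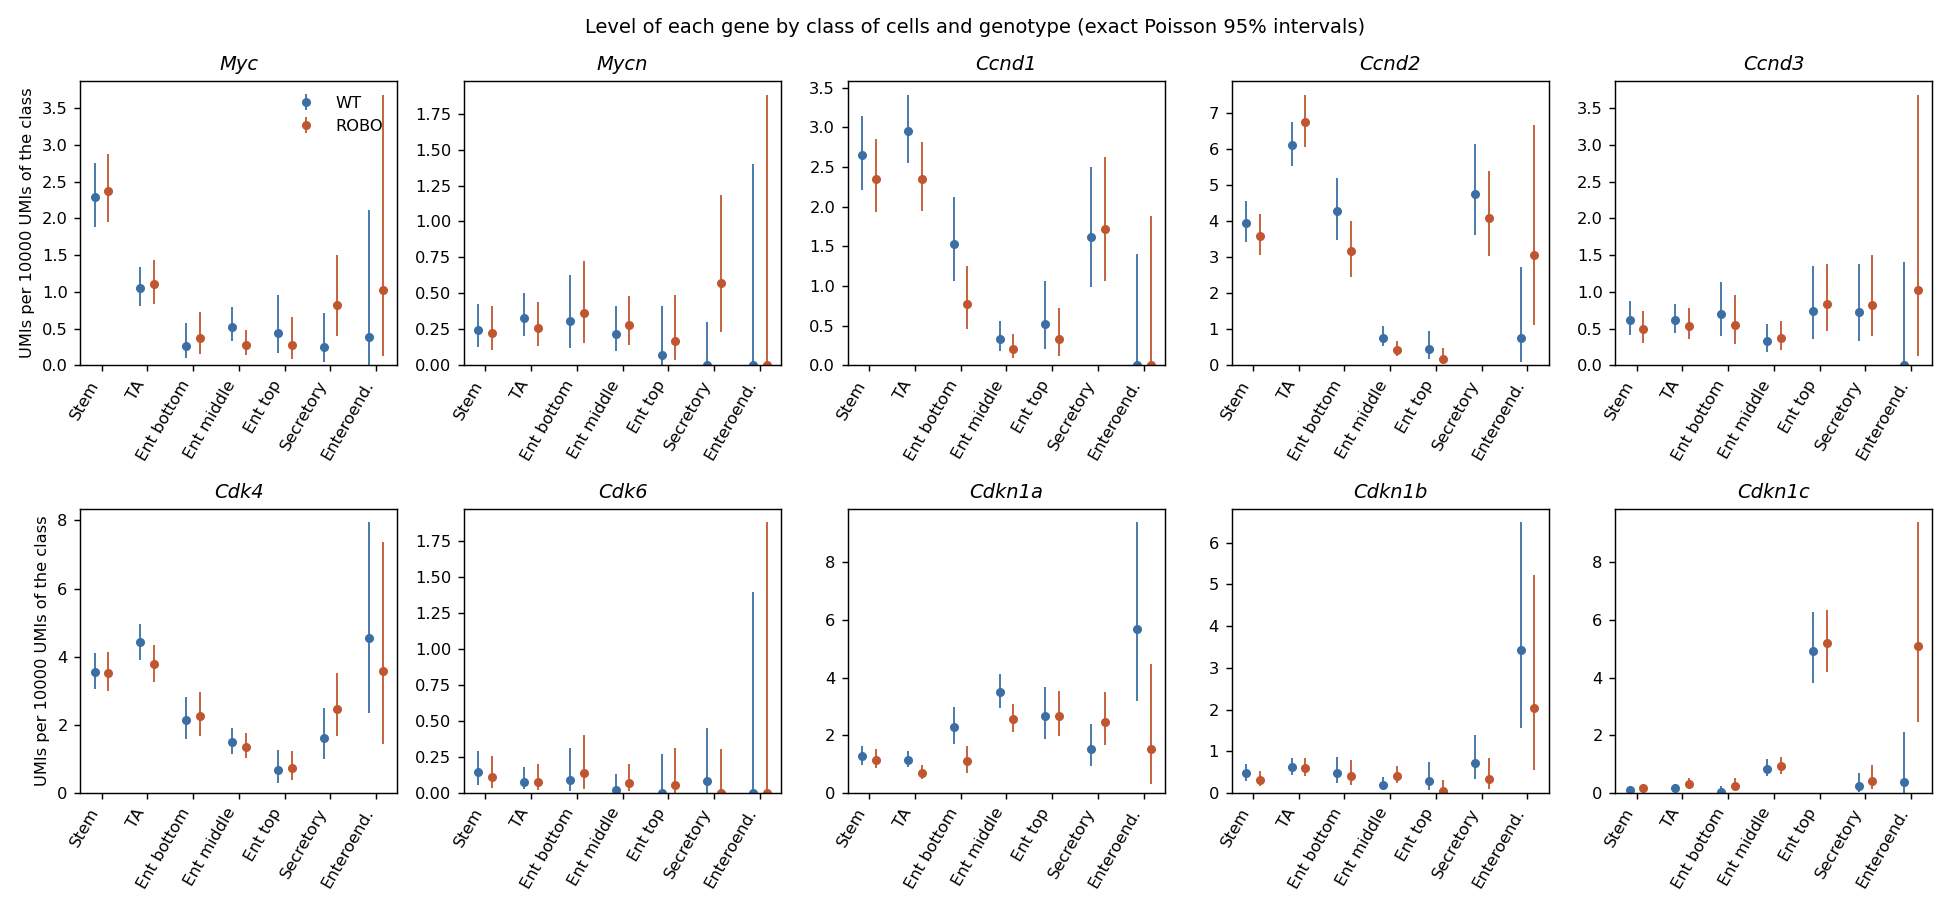
Level of each of the 10 genes (UMIs per 10000 UMIs, linear axis from 0) in 7 epithelial classes, WT in blue and ROBO in orange, with exact Poisson 95% intervals. Myc was 2.33 in stem cell-like and 1.08 in TA-like cells, while Cdkn1c reached 5.08 in top enterocyte-like cells. Ent, enterocyte-like; Enteroend., enteroendocrine-like.

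In stem cell-like cells Myc stood at 2.29 for WT (interval 1.88 to 2.75, 112 UMIs) and at 2.38 for ROBO (1.95 to 2.87, 107 UMIs). TA-like cells held less of it, 1.05 for WT (0.814 to 1.33) and 1.11 for ROBO (0.837 to 1.44). The genotypes overlapped in both classes, and the classes did not overlap in either genotype. The log2 ratio of TA-like over stem cell-like cells was −1.11 (−1.45 to −0.79), at −1.12 in WT and −1.10 in ROBO, and Myc was the only 1 of 8 members past 2-fold there, against 8.95% of 6893 genes in either direction and 4.18% in the lower direction. In enterocyte-like cells Myc was 0.434 for WT and 0.301 for ROBO, and its log2 ratio over stem cell-like cells was −2.67 (−3.11 to −2.25). The unnamed cluster 0, whose leading genes hold both the stem marker Ascl2 and the bottom enterocyte markers Reg3b and Reg3g, lay between stem and TA-like cells at 1.73 in both genotypes. Mycn, which encodes a close relative of Myc, had only 128 UMIs in all cells and no such order. Its level was 0.234 (0.147 to 0.354) in stem cell-like, 0.297 in TA-like and 0.248 in enterocyte-like cells.

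Genes known as Myc targets, 25 genes of ribosome assembly, translation and metabolism, were not ordered as Myc was. Their summed level was 67.7 in stem cell-like, 87.8 in TA-like, 72.6 in bottom, 42.6 in middle and 19.6 in top enterocyte-like cells. Of these 5 classes TA-like cells held the most, while Myc was highest in stem cell-like cells. Abundant targets such as Ldha weigh on the sum, and target by target 10 of 24 were lower and 1 higher in the bottom zone than in stem cell-like cells, with a median log2 ratio of −0.61 against −0.03 for all genes, of which 12.6% were lower and 9.47% higher by as much. Of 25 targets, 1 was 2-fold higher in TA-like than in stem cell-like cells and none was lower, with a median log2 ratio of 0.22 against 0.05 for all genes, of which 4.77% were higher by as much. The 1 was Odc1, the rate-limiting enzyme of polyamine synthesis, at 1.40 (0.90 to 1.93), and Ldha, lactate dehydrogenase, stood at 0.94 (0.81 to 1.08). In enterocyte-like against stem cell-like cells, 14 of 24 targets were lower and 1 was higher, against 18.9% and 12.8% of all genes. The median log2 ratio was −1.42 against −0.21 for all genes. Nop56, a ribosomal RNA processing factor, was lower by a log2 ratio of −2.71, Ppan by −2.48 and Npm1, nucleophosmin, by −1.81, while Ldha was higher by 1.40. Partners and antagonists of Myc were mixed, with 3 of 7 higher and 2 lower, against 12.8% and 18.9% of all genes. Mxd1, which competes with Myc for Max, was higher in enterocyte-like cells by 3.58 (2.78 to 4.51), Max by 1.39 and Mlx by 1.33, whereas Mycl and Mga were lower by −1.90 and −1.45.

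**Figure D2:**
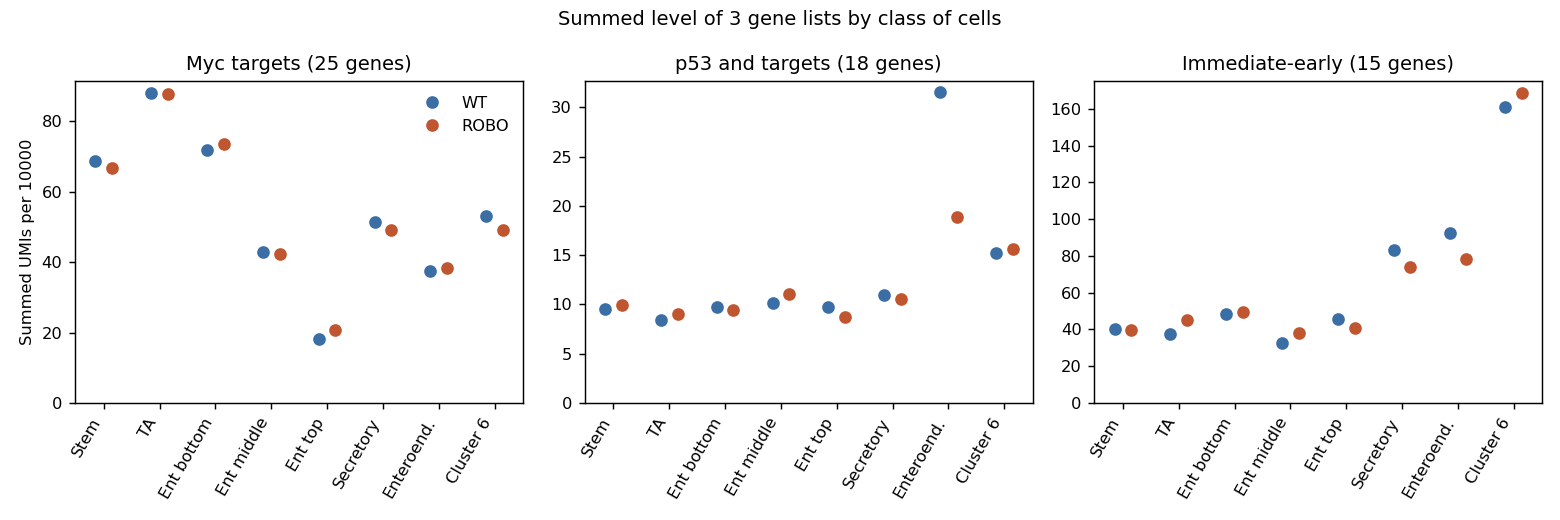
Summed level (UMIs per 10000 UMIs, linear axis from 0) of Myc targets, of p53 and its targets, and of immediate-early genes in 7 epithelial classes and the unnamed cluster 6, WT in blue and ROBO in orange. The Myc target sum was 87.8 in TA-like and 19.6 in top enterocyte-like cells, and the immediate-early sum was 164 in cluster 6.

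Ccnd1 and Ccnd2, which encode cyclins D1 and D2, parted in the bottom enterocyte zone. Stem cell-like cells held Ccnd1 at 2.65 for WT (2.22 to 3.15) and 2.36 for ROBO (1.93 to 2.85). TA-like cells held it at 2.96 for WT (2.55 to 3.41) and 2.36 for ROBO (1.95 to 2.82). Stem and TA-like cells overlapped, with a log2 ratio of 0.10 (−0.15 to 0.35). Ccnd1 was already lower in bottom enterocyte-like cells, at 1.16 (log2 ratio over stem cell-like −1.11, −1.57 to −0.67), and stood at 0.270 in the middle zone and 0.413 in the top zone. It had 0 UMIs in the 30 enteroendocrine-like cells, where a count of 0 allows a level of up to 0.653.

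Stem cell-like cells held Ccnd2 at 3.96 for WT (3.42 to 4.56) and 3.60 for ROBO (3.07 to 4.20). TA-like cells held more, 6.13 for WT (5.53 to 6.76) and 6.77 for ROBO (6.07 to 7.53), a log2 ratio of 0.76 (0.57 to 0.95). Over 14 alternative settings that ratio ran from 0.04 to 0.98. In contrast to Ccnd1, Ccnd2 in bottom enterocyte-like cells was near its stem cell-like level (3.74, log2 ratio −0.02, −0.29 to 0.25), and was low in the middle zone, at 0.599, and in the top zone, at 0.286. The paper separates bottom enterocytes in S or G2M phase from those in G1, whereas phase was compared here only in stem cell-like and TA-like cells. The part of dividing cells in the bottom zone levels was not tested. Secretory-like cells held 4.44 (3.64 to 5.35) and immune-like cells 5.01 (3.65 to 6.70). Among stem cell-like, TA-like, enterocyte-like and secretory-like cells, Ccnd3 ranged from 0.352 (0.238 to 0.503) in the middle to 0.793 (0.514 to 1.17) in the top enterocyte zone, a log2 ratio of 1.17 (0.35 to 1.99). Its highest level was in immune-like cells, at 2.67 (1.71 to 3.97), with 2.34 in WT and 3.20 in ROBO.

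Cdk4, the kinase partner of the D cyclins, was also high in the crypt classes. Its stem cell-like level was 3.55 for WT (3.04 to 4.12) and 3.53 for ROBO (3.01 to 4.13). Its TA-like level was 4.42 for WT (3.92 to 4.97) and 3.78 for ROBO (3.26 to 4.36). Bottom enterocyte-like cells held 2.19, the middle zone 1.42 and the top zone 0.698 (0.438 to 1.06). Over all enterocyte-like cells the log2 ratio to stem cell-like cells was −1.25, with −1.21 in WT and −1.28 in ROBO. Unlike Ccnd1, Cdk4 was detected in the few enteroendocrine-like cells, at 4.14 (2.49 to 6.46, 19 UMIs). Cdk6, its close relative, had 44 UMIs in all 2597 cells, and no class could be told from another at that depth.

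**Figure D3:**
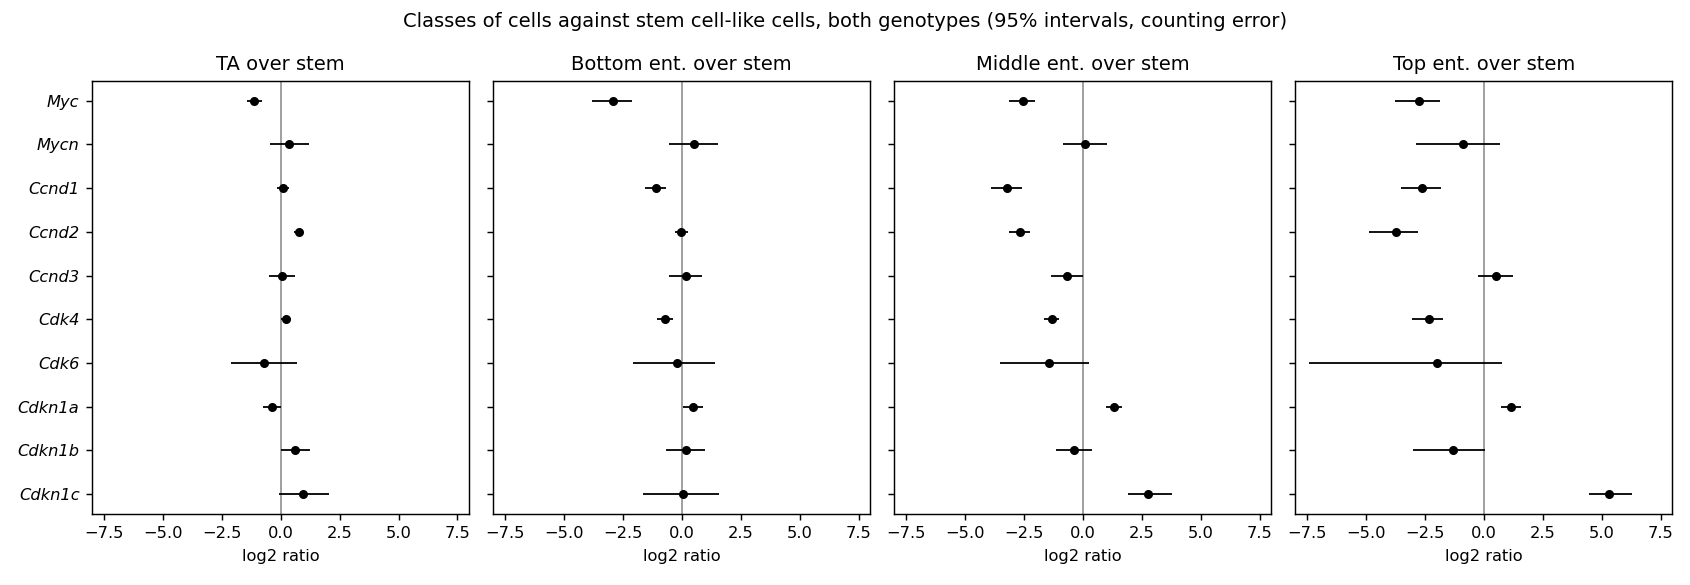
Log2 ratio of each gene's level in TA-like and in bottom, middle and top enterocyte-like (ent.) cells over stem cell-like cells, both genotypes together, with conditional exact 95% intervals. Ccnd2 lies at −0.02 in the bottom zone and at −2.66 in the middle zone, whereas Myc is at −2.90 already in the bottom zone.

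Among the inhibitors, Cdkn1a, which encodes p21 and is induced by p53, was higher in enterocyte-like cells than in the crypt classes. Stem cell-like cells held 1.21 (1.00 to 1.46) and TA-like cells 0.944 (0.775 to 1.14), with overlapping intervals. Among enterocyte-like cells the bottom zone held 1.70 (1.34 to 2.13), the middle zone 3.02 (2.66 to 3.41) and the top zone 2.67 (2.13 to 3.30). Enterocyte-like over stem cell-like cells gave a log2 ratio of 1.09 (0.79 to 1.40), at 1.24 in WT and 0.93 in ROBO. A list of 18 genes, p53 itself and targets other than Cdkn1a, had a sum of 9.73 in stem cell-like and 10.1 in enterocyte-like cells, and 2 of 10 genes with at least 50 UMIs were higher and 2 lower, near the shares of all genes (12.8% and 18.9%). Those higher were the death receptor Fas, by 3.42 (1.79 to 5.74, on 3 UMIs in stem cell-like cells), and the apoptosis gene Pmaip1, by 1.85, while Trp53 itself was lower by −1.60. The highest Cdkn1a level of a large cluster was 4.22 (3.46 to 5.09) in the unnamed cluster 6, at 4.34 in WT and 4.07 in ROBO. This cluster was led by Cxcl10, Fosb and Atf3. Fosb, Atf3 and Dusp1, all on the immediate-early list, were among its 10 leading genes, so that list describes the cluster and does not test it. The 15 genes of the list summed to 164 against 40.6 in enterocyte-like cells. Of the 15, 14 were at least 2-fold higher in cluster 6, against 5.96% of all genes. Myc and Mycn were also higher there than in enterocyte-like cells, by 1.17 (0.37 to 1.91) and 1.24 (0.28 to 2.13). The part of dissociation in these levels was not tested.

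Cdkn1c, which encodes p57, was the member with the steepest pattern. Top enterocyte-like cells held 160 of its 338 UMIs, or 47.3%, and only 6.16% of all UMIs. Its level there was 4.93 for WT (3.82 to 6.26) and 5.19 for ROBO (4.19 to 6.36). Stem cell-like cells held 0.128 (0.066 to 0.223), TA-like cells 0.245, the bottom zone 0.134 and the middle zone 0.881. The top zone held 5.77-fold more than the middle zone, a log2 ratio of 2.53 (2.12 to 2.94), with 2.56 in WT and 2.49 in ROBO, where 5.34% of genes were higher by 2-fold or more. With Ccnd3 it was 1 of 2 members higher by as much, of 5 with at least 50 UMIs. No single cell gave more than 10 of these UMIs. Cdkn1c is imprinted in mice, and the counts do not separate alleles. For Cdkn1a the top over middle log2 ratio was −0.18 (−0.55 to 0.18). Cdkn1b, which encodes p27, was low in most classes, at 0.394 (0.277 to 0.543) in stem cell-like and 0.316 (0.235 to 0.416) in enterocyte-like cells. It was highest in enteroendocrine-like cells, at 2.83 (1.51 to 4.84), on 13 UMIs in 30 cells, with 3.42 in WT and 2.04 in ROBO. Of 31 other genes of the G1/S step, 22 had at least 50 UMIs in these 2 classes, and 4 of them were higher and 6 lower in enterocyte-like cells, where 12.8% of all genes were higher and 18.9% lower. The largest ratio was that of Cdkn2b, the INK4 inhibitor p15 of Cdk4 and Cdk6, at 3.75 (2.60 to 5.23). Ccng2, an atypical cyclin, was at 2.22, and E2f6, a repressor of the E2F family, at −2.27.

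Phase calls were made for the 740 stem cell-like and TA-like cells with at least 912 UMIs, each thinned to 912, from genes that included no member. This gave 171 cells in G1, 298 in S and 271 in G2M. Of them, 191 lay within 0.05 of the score that divides G1 from S and G2M. Cells near the boundary between S and G2M were not counted. Of the G1 cells, 154 were stem cell-like and 17 TA-like, so phase and class cannot be told apart over both classes together. Ccnd2 was 1.57-fold higher in S and G2M cells than in G1 cells, with 3.62 (3.02 to 4.31) in G1, 5.45 (4.95 to 5.99) in S and 5.93 (5.39 to 6.52) in G2M. It was the only 1 of 8 members past 1.5-fold, against 25.2% of 6492 genes in either direction and 16.6% in the higher direction. The Ccnd2 log2 ratio was 0.98 for WT (0.58 to 1.42) and 0.34 for ROBO (−0.02 to 0.72), with 0.56 and 0.61 when cells were thinned to 1550 UMIs and 0.86 and 0.93 without thinning. Cdk4 was 3.11 in G1, 4.65 (4.18 to 5.15) in S and 3.55 in G2M. Myc was 1.95 (1.52 to 2.47) in G1, 1.81 in S and 1.26 (1.02 to 1.54) in G2M, and Cdkn1a was 1.33 in G1 and 0.908 in G2M with overlapping intervals.

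Within stem cell-like cells alone, where classes do not mix, the log2 ratio of cycling over G1 cells was 0.43 (0.05 to 0.82) for Ccnd2, with 0.65 (0.38 to 0.93) over both classes, and Myc was at 0.19 (−0.26 to 0.65). None of the 5 members with at least 50 UMIs passed 1.5-fold, against 15.3% of genes. Over both classes the Ccnd1 contrast had opposite signs in the genotypes, which was not tested. WT cells held 1.48 in G1 (0.986 to 2.15) and 3.85 in S (3.27 to 4.49). ROBO cells held 2.61 in G1 (1.89 to 3.52) and 2.01 in S (1.57 to 2.52). The log2 ratio of cycling over G1 cells was 1.12 for WT (0.55 to 1.73) and −0.15 for ROBO (−0.65 to 0.37). The opposite signs were not present under other phase calls. With cells thinned to 1550 UMIs the ratios were 0.36 for WT and 0.19 for ROBO, and without thinning 0.85 and 0.59. E2f8, Ccne2, Cks1b and Cks2 helped to set the phase and were left out of the count of other G1/S genes. Of the remaining 17 with at least 50 UMIs, over both classes, 8 were higher in cycling cells and 1 was lower. Of all genes, 16.6% were higher and 25.2% differed in either direction. The phase was cut from cell cycle genes, and genes that vary with those are higher in cycling cells by construction. The count is therefore a description and no test. The higher genes included Ccna2, an S-phase cyclin, at 3.76 (2.70 to 5.08).

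**Figure D4:**
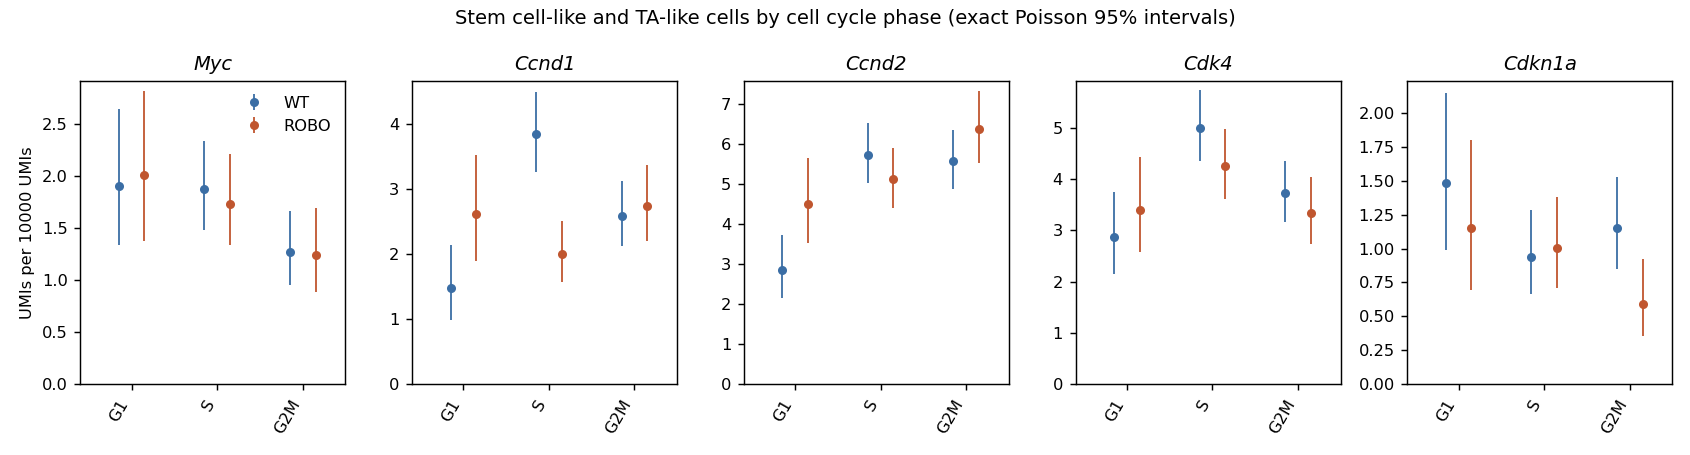
Level of 5 genes (UMIs per 10000 UMIs, linear axis from 0) in stem cell-like and TA-like cells called as G1, S or G2M after thinning to 912 UMIs, WT in blue and ROBO in orange, with exact Poisson 95% intervals. WT Ccnd1 went from 1.48 in G1 to 3.85 in S, and ROBO Ccnd1 from 2.61 to 2.01.

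Between genotypes, over all cells, no member with at least 50 UMIs differed by 1.5-fold, 0 of 9, against 5.15% of 9071 genes. WT cells held Myc at 1.14 and ROBO cells at 1.12 (log2 ratio −0.03, −0.27 to 0.21), and Cdk4 at 2.92 and 2.85 (−0.03, −0.18 to 0.11). Intervals that did not include 0 were those of Ccnd1, lower in ROBO by −0.34 (−0.53 to −0.14), Ccnd2 by −0.20 (−0.33 to −0.06) and Cdkn1a by −0.35 (−0.54 to −0.17). Cdkn1c was higher in ROBO by 0.49 (0.17 to 0.81), while in top enterocyte-like cells, which held more of it than any other class, the ratio was 0.07 (−0.40 to 0.55). The share of top enterocyte-like cells was 7.42% in WT and 9.85% in ROBO, so level and cell share cannot be told apart in the pooled value.

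In stem cell-like cells the intervals of all 10 members included 0. None of 6 passed 1.5-fold, against 9.24% of 4049 genes, with Myc at 0.06 (−0.34 to 0.45), Ccnd1 at −0.17 (−0.56 to 0.21), Ccnd2 at −0.14 (−0.45 to 0.17) and Cdk4 at −0.01 (−0.33 to 0.31). In TA-like cells, Cdkn1a was lower in ROBO, with 0.693 (0.482 to 0.963) against 1.14 (0.897 to 1.44) for WT and a ratio on the log2 scale of −0.72 (−1.35 to −0.12). It was the 1 of 7 members past 1.5-fold, against 15.9% of 4781 genes in either direction and 6.94% in the lower direction, and the ratio ran from −0.87 to −0.44 over 13 alternative settings, with 4 of them under 1.5-fold. Ccnd2 was 0.14 (−0.07 to 0.36) and Ccnd1 −0.33 (−0.67 to 0.01).

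In enterocyte-like cells both Ccnd1 and Ccnd2 were lower in ROBO. Ccnd1 was at 0.715 for WT (0.540 to 0.929) and 0.385 for ROBO (0.263 to 0.544), and its log2 ratio was −0.89 (−1.57 to −0.24). Ccnd2 was at 1.74 for WT (1.46 to 2.06) and 1.09 for ROBO (0.882 to 1.34), and its log2 ratio was −0.67 (−1.07 to −0.27). They were 2 of 8 members past 1.5-fold, against 8.99% of 5261 genes in either direction and 5.17% in the lower direction. In the bottom zone alone Ccnd1 was lower by −0.97 (−1.90 to −0.10) and Cdkn1a by −1.05 (−1.81 to −0.32). Ccnd2 there was at −0.44 (−0.90 to 0.02), under 1.5-fold, and at −0.81 (−1.71 to 0.06) in the middle zone. The share of dividing cells in the zones was not compared between genotypes. The zones held 6.75%, 15.4% and 7.42% of WT cells and 6.41%, 16.6% and 9.85% of ROBO cells from bottom to top, and with the zones weighted equally Ccnd1 was at −0.85 and Ccnd2 at −0.54. Cdkn1a over all enterocyte-like cells was lower by −0.44 (−0.73 to −0.16), from 2.99 to 2.20, and stood at 2.65 for WT and 2.68 for ROBO in the top zone. Cdk4 was at −0.07 (−0.45 to 0.30). Some immediate-early and heat shock genes moved with genotype in these cells, in both directions. Hspa1b was higher in ROBO by 0.79 (0.48 to 1.10) and Egr1 by 0.46 (0.19 to 0.74). Jund was lower by −0.60 (−1.22 to 0.01) and Jun by −0.20 (−0.38 to −0.02). The list of 15 summed to 39.6 in WT and 41.6 in ROBO. In TA-like cells the list summed to 37.3 for WT and 45.2 for ROBO. Fos was at 0.34, Jun at 0.27 and Egr1 at 0.40, while Jund was at −0.49 (−1.41 to 0.38). Their part in the differences between genotypes was not tested. In the unnamed cluster 0 Cdkn1a was lower in ROBO by −0.71 (−1.27 to −0.17) and Cdk4 higher by 0.44 (0.10 to 0.78). Over 15 alternative settings of the enterocyte-like comparison Ccnd1 stayed below 0, between −0.99 and −0.25 and past 1.5-fold in 12 of them, and Ccnd2 between −0.86 and −0.54 and past it in 14.

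Over all cells, Mxi1, an antagonist of Myc, was higher in ROBO by 0.50 (0.10 to 0.90) and Max by 0.31 (0.02 to 0.61). Mxd3 was lower by −1.07 (−1.86 to −0.32). It was the 1 of 8 Myc network genes past 1.5-fold, against 5.15% of all genes. Of 25 Myc targets none passed it, and the largest ratios were those of Srm, spermidine synthase, at −0.43, Pa2g4 at −0.41 and Mrto4 at −0.36. In TA-like cells 5 of 16 other G1/S genes were higher in ROBO and 1 lower, where 8.99% of all genes were higher by as much. They included Rbl1, a retinoblastoma relative, at 1.25 (0.54 to 2.00) and Cdk2, the kinase partner of cyclins E and A, at 1.24 (0.50 to 2.02). Of 24 Myc targets there, 2 were higher and 2 lower, against 8.99% and 6.94% of all genes. Odc1 was at 0.72 (0.21 to 1.23), Pa2g4 at −0.64 and Mrto4 at −0.66. In ROBO enterocyte-like cells Eif4e, a translation initiation factor, was higher by 0.81 (0.13 to 1.51) and Fbl, fibrillarin, by 0.74 (0.12 to 1.38). Nop58 was lower by −0.57 (−1.195 to 0.039). In stem cell-like cells Rrs1, a ribosome assembly factor, was higher by 0.85 (0.06 to 1.66). Srm was lower there by −0.38 (−1.04 to 0.26) and Pa2g4 by −0.30 (−0.82 to 0.22). Of all genes, 8.99% differed by 1.5-fold or more in enterocyte-like and 9.24% in stem cell-like cells.

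**Figure D5:**
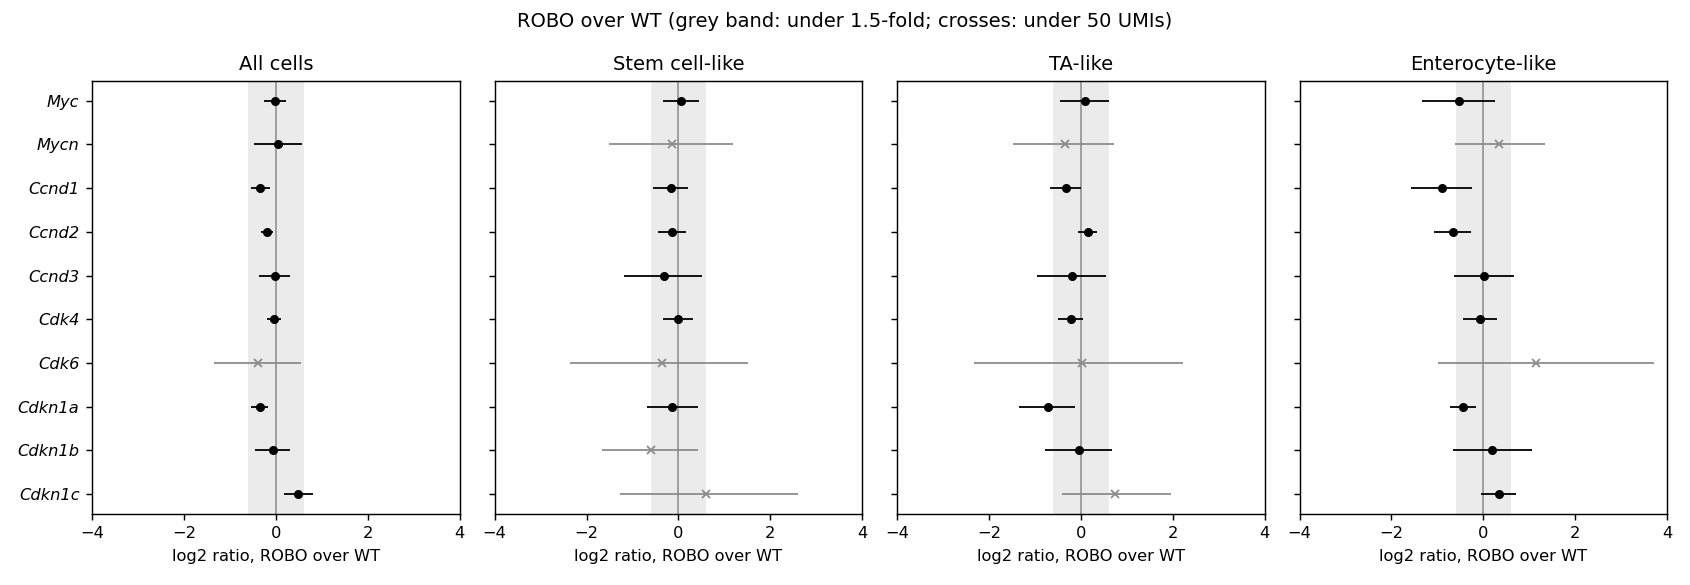
Log2 ratio of ROBO over WT for each gene in all cells, stem cell-like, TA-like and enterocyte-like cells, with conditional exact 95% intervals. The grey band marks less than 1.5-fold, crosses mark genes with under 50 UMIs. Ccnd1 (−0.89) and Ccnd2 (−0.67) lie outside the band in enterocyte-like cells.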

How the data were processed

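Single-cell 3′ libraries came from a droplet kit with UMIs, sequenced on a NextSeq. The authors' deposited matrices hold raw counts of UMIs per gene and cell, 1 matrix per genotype. The methods name BaseSpace for preprocessing and Seurat version 2 for analysis; the submitters' processing notes name the builds mm10 and GRCm38, and the aligner, annotation and cell calling are not given in the sources used here. No column was left out (0 unused).

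Clustering used Seurat 5.3.0 in R 4.3.3: log-normalized counts per 10000, S and G2M scores regressed out, 2000 variable genes without the members, 20 components, resolution 0.8. A class name needed at least 3 of its markers raised 1.5-fold (0.1 added) and detected in 10% or more of the cluster, and where several names qualified, the one whose markers had the largest average log2 fold was taken. It also needed 1 such marker among its 10 leading genes and no more of another class, a requirement set after the clusters were seen. Scrublet in scanpy 1.11.5 called 2 WT and 4 ROBO doublets, kept except in an alternative. Ratios of sums have conditional exact intervals and levels exact Poisson intervals (scipy 1.17.1). Simulated sums with 200 changed genes, run on 9071 genes, gave intervals that held the truth for 95.9%. The simulated sums had counting error alone, which the intervals assume, so spread between cells or mice was not tried. Named genes were the 10 members, and from each list the 3 with the most UMIs or the largest ratio at 50 or more UMIs; for members with at least 200 UMIs, also the 3 genes most alike, of which 1 is not reported here. A gene was counted as past a fold on its ratio alone. Members and lists were chosen with earlier results of these data known. Alternatives covered scaling, cell weights, UMI minimum, clustering, doublets and phase calls.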

Additional observations from a re-analysis of the deposited data

Results flagged for a closer look

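The Ccnd1 ratio of cycling over G1 cells lay above 0 in WT and below 0 in ROBO, with intervals that did not overlap. On the log2 scale it was 1.12 for WT (0.55 to 1.73) and −0.15 for ROBO (−0.65 to 0.37) over stem cell-like and TA-like cells. In stem cell-like cells alone it was 1.43 for WT (0.74 to 2.18), on 85 and 22 UMIs, and −0.44 for ROBO (−1.09 to 0.21), on 47 and 39 UMIs. The difference between genotypes was not tested, since each was 1 pooled sample. With cells thinned to 1550 UMIs the ratios in stem cell-like cells were 0.32 in WT and 0.43 in ROBO, and without thinning 0.93 and 0.65, settings applied within each genotype after seeing the data.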

How the results depend on the processing

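No paired analysis was possible because cell names carry only the genotype, so replicate numbers cannot be tied to cells. For the same reason no replicate could be left out. With 1 pooled sample per genotype, differences between mice are unknown, and members under 50 UMIs are limited by depth. Of the alternative ratios of single members, 671 lay within the counting interval of the ratio reported and 30 did not, and no ratio past the fold changed sign. The number of members past the fold moved by over 1.5 times in 17 cases and stayed within that in 73. Between ROBO and WT in stem cell-like cells it went from 0 to 1 with a minimum of 20 UMIs and 2 with no minimum. In TA-like cells it went from 1 to 0 with each cell weighted equally, with 30 components or with 3000 variable genes, and to 2 with a minimum of 20 or none. In enterocyte-like cells it went from 2 to 1 without phase regression, and with the 3 zones weighted equally, a setting chosen after seeing the data. Between TA-like and stem cell-like cells it went from 1 to 0 with equal cell weights and with members kept among the clustering genes, where the Myc ratio was −0.97 and −0.89. Between cycling and G1 cells it went from 1 to 2 without the top cell of each gene or with a minimum of 20, 3 with no minimum, 0 with thinning to the median, 4 without thinning, and 2 with cluster 0 added, chosen after seeing the data. At resolution 0.4 no cluster met the TA naming rule, so no TA value exists there. The causes were not tested.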

Other observations

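The genes most alike to each member were ranked by Pearson correlation of log2 levels over 14 points, 7 epithelial classes in 2 genotypes, among 5107 genes. Points share libraries and depth, and the correlations describe the classes only. Myc was most like Rpl13a (r = 0.92), a ribosomal protein gene, Zfhx3 (0.83) and Cdca7 (0.83), which is also in the stem marker list. Ccnd1 was most like Wdr36 (0.96), Nup85 (0.95) and Kcnn4 (0.95), and Ccnd2 was most like Smpd3 (0.97), Ybx3 (0.95) and Polr3k (0.95). Ccnd1 and Ccnd2 correlated with each other at 0.64. Ccnd1 had 0 UMIs in enteroendocrine-like cells, so its points for that class lie at the 0.1 added before the log. Points at this floor can weigh on its correlations. Cdk4 was most like Cpsf6 (0.96), Apex1 (0.96) and Pcbp2 (0.95).

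The inhibitors had other neighbours. Cdkn1a was most like Entpd7 (0.85) and Ifrd1 (0.84), which is in the top enterocyte marker list. Cdkn1c was most like Hbp1 (0.91), a repressor of cell cycle genes, Flcn (0.90) and Tpp1 (0.89), a lysosomal peptidase. Cdkn1b was most like Bphl (0.94), Pbrm1 (0.93) and Zcrb1 (0.90), and Ccnd3 was most like Cdc42bpg (0.94), Ciz1 (0.92) and Nucb1 (0.92). In enteroendocrine-like cells Cdkn1c differed between genotypes on few counts, at 0.38 (1 UMI) in WT and 5.10 (10 UMIs, 5 of them in 1 cell) in ROBO.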
